A study of Homo sapiens with 6 samples.

Results

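The genes described here are 10 targets of the hypoxia-inducible factors (HIFs) that lie outside glycolysis, namely CA9, CA12, ADM, NDRG1, BNIP3, EGLN3, KDM3A, P4HA1, ANKRD37 and STC2. They were taken as a list of symbols and found through the ID of each probe set, which is an Entrez gene ID with a suffix. All 10 genes were measured. GEO's annotation of the probe sets names 9 of them, and CA9, which it does not list, was named by the same gene ID in RefSeq after the values of the other 9 had been examined. They stand among 23932 genes with a symbol and 24726 probe sets in all. The samples were 6 subcutaneous tumours in nude mice, a strain short of T cells, grown from the human hepatocellular carcinoma line Huh7. In 3 tumours the cells carried the plasmid pRcCMVi.hIR-A(GFP), for the A isoform of the insulin receptor from human (IR-A tumours). The cells of the remaining 3 had received the vector without insert (control tumours). Cells of both groups had been selected with G418 and by cytometry for green fluorescence, and whether they were 1 clone or a pool is not given in the sources used here.

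HIFs are transcription factors made of an oxygen-sensitive alpha subunit, HIF1A or EPAS1, and the stable partner ARNT. With oxygen present, prolyl hydroxylases of the EGLN family mark the alpha subunit and the VHL ubiquitin ligase directs it to destruction. When oxygen is short the alpha subunit persists, pairs with ARNT and binds a short DNA element with the core ACGTG or GCGTG near its target genes. Targets outside glycolysis buffer acid, remove mitochondria, mature collagen, secrete peptides and feed back on the oxygen sensor. In liver cancers these genes are known as marks of oxygen-poor regions.

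Each tumour was measured on 1 Affymetrix array, and the values are log2 signals in which a difference of 1 is a 2-fold change. INSR, the insulin receptor gene that the plasmid carries, read 10.65, 11.31 and 11.01 in IR-A tumours and 8.04, 7.61 and 8.47 in control tumours. The groups of INSR values did not overlap, in the direction that the labels give. Markers of hepatocytes and of Huh7 cells such as ALB and AFP were bright in every tumour, and no measured one of the list (9 of 10) read below 10.15. Control tumour 2 had a higher mean correlation across probe sets with the IR-A tumours (0.987) than with the other controls (0.982). Control tumours 1 and 3 had 0.973 and 0.978 with the IR-A tumours, and 0.985 and 0.984 with the other controls. The number of arrays limits the precision. The labels name neither mouse nor culture for any tumour, and p-values therefore rest on a spread between samples that may be technical. In such bulk tissue, fewer cells of a type and less RNA per cell cannot be told apart.

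No HIF target of the list differed between IR-A and control tumours beyond the spread between tumours. With limma and adjustment over all probe sets, 0 of 10 genes had an adjusted p under 0.05, where the percentage of all probe sets called was 0%. At an unadjusted p under 0.05 there were also 0 of 10, against 14.1% of all probe sets. IR-A and control tumours overlapped in all 10 genes, whereas they did not overlap in 17.2% of all probe sets (7.73% with IR-A tumours higher and 9.45% with them lower). Of the 10 differences, 5 were above 0 and 5 below, with a median of -0.04 on the log2 scale (0.075 without CA9), against -0.03 over all probe sets. Adjusted p values from limma ran from 0.543 (EGLN3) to 0.942 (P4HA1). Calls over all probe sets were counted in only some of the alternative settings. Those with a count above 0 called none of the 10 genes either. They were leaving out control tumour 2 (1.25% of all probe sets called), weighting of arrays (0.0445%), and a filter on the dimmest 25% (0.0755%) or 50% (0.162%). The median depended on single tumours. It was -0.31 without control tumour 2, and it changed direction to 0.26 without control tumour 3 and to 0.03 without IR-A tumour 1.

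**Figure D1:**
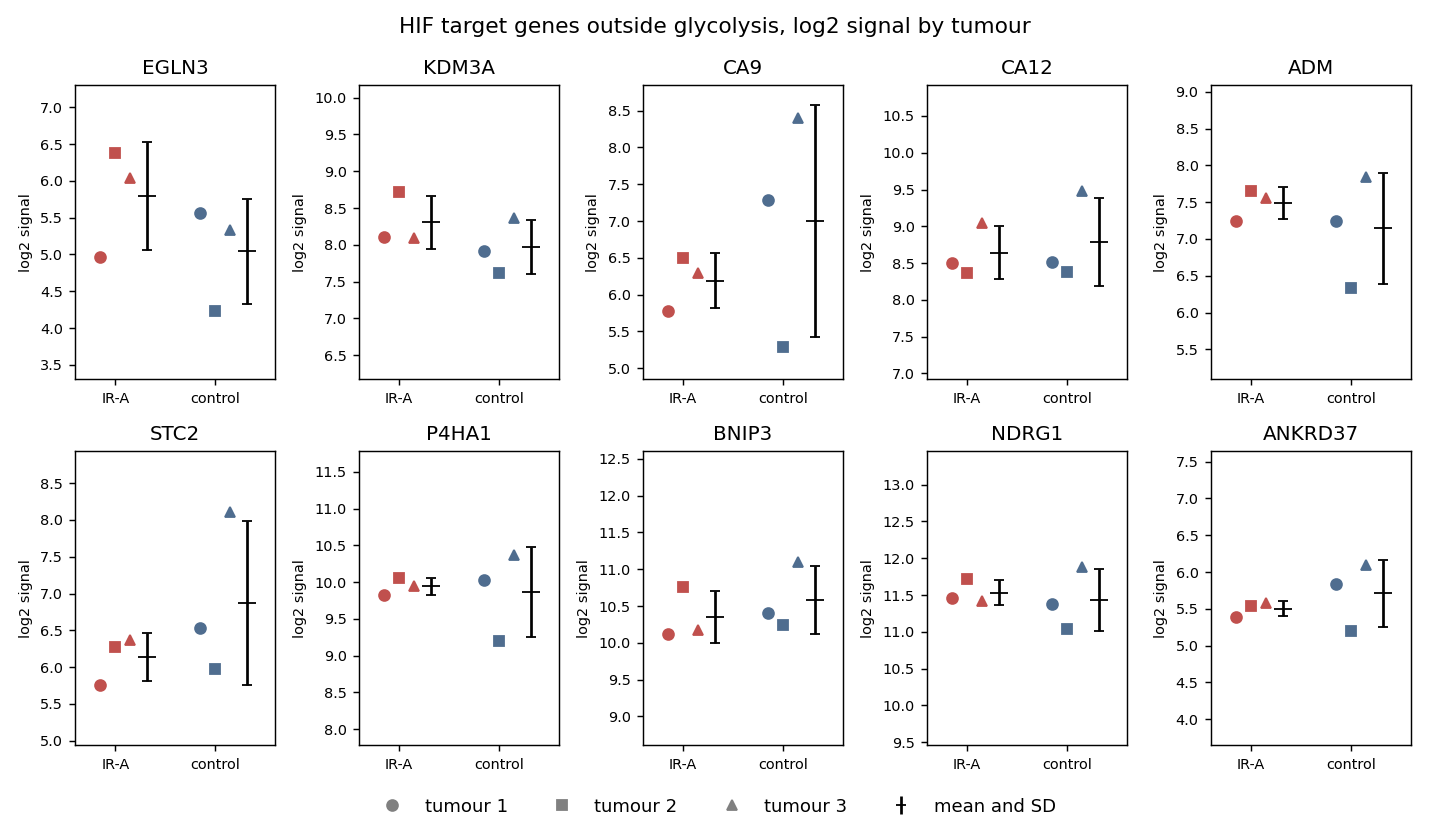
Log2 signal of 10 HIF target genes (y axis, 4 log2 units in each panel) in 3 IR-A tumours (red, left) and 3 control tumours (blue, right). Points are tumours, marked by their number, and the bar beside them is the mean with the SD. The groups overlap in every panel, control tumour 2 is the lowest control in all 10 and control tumour 3 the highest in 9.

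The hydroxylase EGLN3, a HIF target that itself marks HIF alpha subunits for destruction, had the largest positive difference of the list. EGLN3 read 4.97, 6.38 and 6.04 in IR-A tumours and 5.56, 4.23 and 5.33 in control tumours. IR-A tumours 2 and 3 lay above all controls, while IR-A tumour 1 lay below control tumours 1 and 3. EGLN3 averaged 5.80 ± 0.73 in IR-A tumours and 5.04 ± 0.71 in control tumours (SD, n = 3 each). The log2 difference of 0.76 had an SE of 0.47 and a 95% interval from -0.36 to 1.88. Without control tumour 2 it was 0.35, without IR-A tumour 2 it was 0.46, and without IR-A tumour 1 it was 1.17 at an adjusted p of 0.549 from limma. Without IR-A tumour 1, EGLN3 had an unadjusted p under 0.05, as did 8.72% of all probe sets.

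KDM3A, a histone demethylase that needs oxygen for its reaction, differed by 0.34 (SE 0.25, 95% interval -0.25 to 0.93). Its signal was 8.11, 8.72 and 8.09 in IR-A tumours, against 7.92, 7.62 and 8.36 in control tumours. Control tumour 3 lay inside the span of the IR-A values. The difference was 0.13 without IR-A tumour 2, 0.16 without control tumour 2 and 0.53 without control tumour 3. EGLN3 and KDM3A, with CA9, ANKRD37 and STC2 on the lower side, were the 5 genes that kept their direction whichever single tumour was left out, and the sizes of their differences moved widely with it.

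CA9, a carbonic anhydrase of the cell surface that helps to control acidity and is widely used as a marker of hypoxia, had the largest negative difference and the widest spread of the list. CA9 read 5.77, 6.50 and 6.30 in IR-A tumours and 7.29, 5.29 and 8.40 in control tumours. All IR-A tumours lay between control tumour 2 and control tumour 1, and the IR-A tumours spanned 0.72 log2 units and the controls 3.11. CA9 averaged 6.19 ± 0.37 in IR-A tumours and 7.00 ± 1.58 in control tumours (SD, n = 3 each). The difference of -0.81 (SE 0.73, limma adjusted p = 0.691) had the widest 95% interval of the list, from -2.56 to 0.95. Without control tumour 2 it was -1.66, where limma's adjusted p of 0.0967 was the lowest of any listed gene in any setting, and without control tumour 3 it was -0.10. CA12, another carbonic anhydrase of the cell surface, read 8.50, 8.37 and 9.05 in IR-A tumours and 8.51, 8.38 and 9.47 in control tumours. In each group tumour 3 was the brightest, and the other tumours lay close together across groups. The difference was -0.15 with a 95% interval from -0.92 to 0.63, and it was -0.35 without control tumour 2 and 0.20 without control tumour 3.

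The list holds a pair of secreted factors, and they differed in opposite directions without passing the test. ADM, the precursor of the vessel-dilating peptide adrenomedullin, read 7.24, 7.66 and 7.56 in IR-A tumours, against 7.24, 6.34 and 7.85 in control tumours. All IR-A tumours lay inside the range that control tumours 2 and 3 span. The difference of 0.34 (95% interval -0.53 to 1.21) became -0.06 without control tumour 2 and 0.70 without control tumour 3. STC2, a secreted glycoprotein of the stanniocalcin family, had 5.76, 6.27 and 6.37 in IR-A tumours and 6.53, 5.97 and 8.11 in control tumours. Control tumour 3 stood above the 5 other tumours, and control tumour 2 lay within the IR-A range. STC2 averaged 6.13 ± 0.32 in IR-A tumours and 6.87 ± 1.11 in control tumours (SD, n = 3 each). Its difference of -0.74 had a 95% interval from -2.00 to 0.53 and was -1.19 without control tumour 2 and -0.11 without control tumour 3.

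P4HA1, a catalytic subunit of the prolyl hydroxylase that matures collagen in the endoplasmic reticulum, read 9.82, 10.05 and 9.95 in IR-A tumours and 10.03, 9.19 and 10.37 in control tumours. The IR-A tumours spanned 0.23 log2 units and the controls 1.18, with the IR-A values inside. The difference was 0.075 (95% interval -0.62 to 0.77), -0.26 without control tumour 2 and 0.33 without control tumour 3.

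BNIP3, a protein of the outer mitochondrial membrane that directs mitochondria to autophagy, had 10.12, 10.76 and 10.17 in IR-A tumours, against 10.41, 10.24 and 11.10 in control tumours. IR-A tumours 1 and 3 were the lowest of the 6, and control tumour 3 was the highest. The difference of -0.23 (95% interval -0.88 to 0.42) was -0.40 without control tumour 2 and 0.03 without control tumour 3.

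NDRG1, a cytoplasmic protein induced by stress and low oxygen, read 11.45, 11.72 and 11.42 in IR-A tumours and 11.38, 11.04 and 11.88 in control tumours. The 3 IR-A values lay between those of control tumours 1 and 3. NDRG1 had the narrowest 95% interval of the list, from -0.42 to 0.62 around a difference of 0.10, and the difference was -0.10 without control tumour 2 and 0.32 without control tumour 3. ANKRD37, an ankyrin repeat protein and HIF target, read 5.39, 5.54 and 5.58 in IR-A tumours and 5.84, 5.20 and 6.09 in control tumours. Its IR-A tumours lay below control tumours 1 and 3 and above control tumour 2. The difference of -0.21 (95% interval -0.75 to 0.33) was -0.46 without control tumour 2 (limma adjusted p = 0.121) and -0.02 without control tumour 3. Without control tumour 2, ANKRD37 and CA9 were the 2 listed genes with an unadjusted p under 0.05, as 21.1% of all probe sets had.

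**Figure D2:**
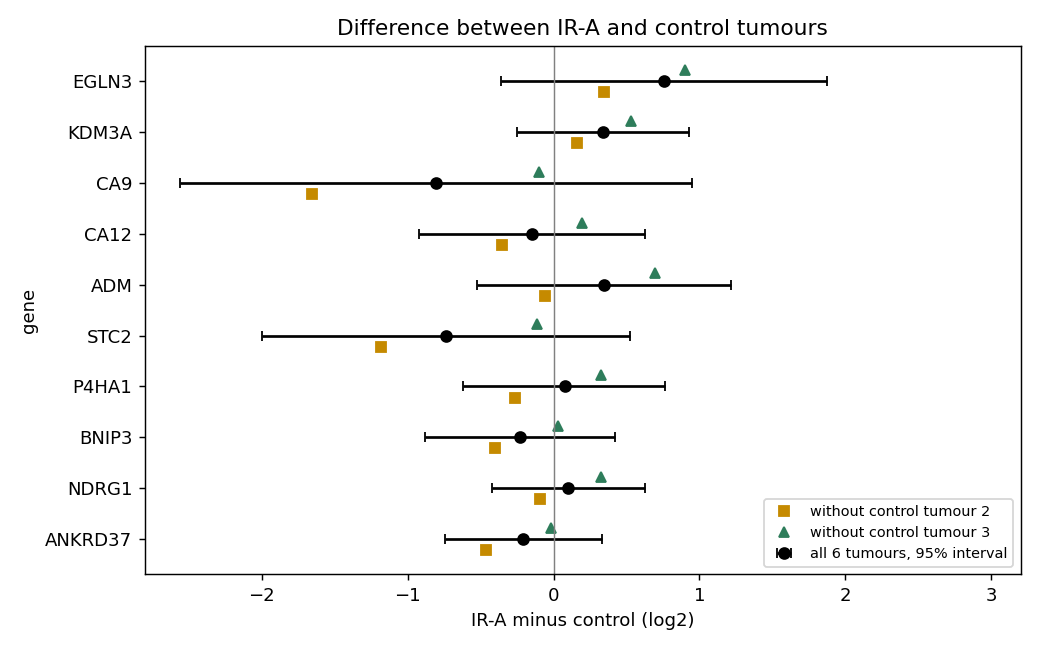
IR-A minus control difference on the log2 scale (x axis) for each of the 10 genes (y axis). Black points with bars are the difference over all 6 tumours with its 95% interval from limma, and every bar spans 0. Squares are the differences without control tumour 2, of which 2 are above 0, and triangles those without control tumour 3, of which 7 are above 0.

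The spread of these genes lay largely between the control tumours. Control tumour 2 was the lowest control in 10 of 10 genes, against 41.9% of all probe sets and 29.7% of probe sets above the median level, to which all 10 genes belong. Control tumour 3 was the highest control in 9 of 10, with EGLN3 the exception, against 33% of all probe sets. The range of the controls exceeded that of the IR-A tumours in 9 of 10 genes, again except EGLN3, against 60.9% of all probe sets. The median range was 0.62 log2 units in IR-A tumours and 1.14 in control tumours, where all probe sets had 0.26 in IR-A tumours and 0.33 in control tumours. In each of the 10 genes the difference between group means was smaller than the range of the controls, as in 79.5% of all probe sets.

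Set directly against each other, control tumour 3 exceeded control tumour 2 by 3.11 log2 units in CA9, by 2.14 in STC2, by 1.51 in ADM, by 1.18 in P4HA1, by 1.11 in EGLN3 and by 1.10 in CA12. The remaining genes had 0.89 (ANKRD37), 0.86 (BNIP3), 0.84 (NDRG1) and 0.74 (KDM3A). The difference was over 1 in 6 of 10 genes, against 1.24% of all probe sets and 1.99% of those above the median level. CA9 ranked 2, STC2 9 and ADM 57 of 23932 genes in this difference, and KDM3A, the last of the list, 776. The pair of tumours was singled out after the values were seen, and these counts are a description with no test.

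**Figure D3:**
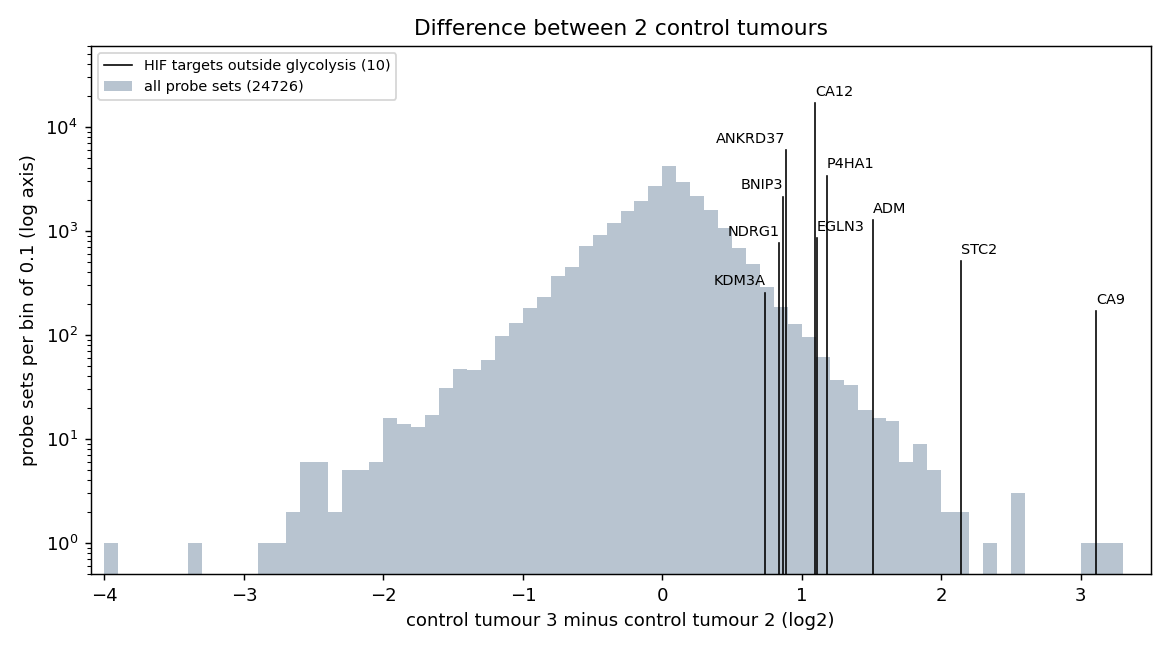
Number of probe sets per bin of 0.1 (y axis, log scale) by the log2 signal in control tumour 3 minus that in control tumour 2 (x axis). Vertical lines mark the 10 HIF target genes and their heights only separate the labels. All 10 lie right of 0, from 0.74 (KDM3A) to 3.11 (CA9), where the median of all probe sets is 0.03.

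Promoter sequences of the listed genes are shown for the element that HIFs bind. Any link between this element and the order of tumours was not tested. RefSeq windows of assembly GRCh38.p14 were at hand for 9 of the 10 genes, and the 250 bases before the start of transcription were searched for ACGTG and GCGTG on both strands (CACGT and CACGC on the printed strand). Overlapping matches were counted as 1. Of the 9 genes, 8 had at least 1 match, where 43.2% of 35116 windows of the same length had one. CA9, with the widest spread, BNIP3, with the most matches, ANKRD37 and STC2, with 2 each, and EGLN3, with the largest positive difference and no match in this window, are printed 5′ to 3′ on the strand of the gene with matches in capitals.
CA9 promoter, chr9:35673678-35673927, plus strand: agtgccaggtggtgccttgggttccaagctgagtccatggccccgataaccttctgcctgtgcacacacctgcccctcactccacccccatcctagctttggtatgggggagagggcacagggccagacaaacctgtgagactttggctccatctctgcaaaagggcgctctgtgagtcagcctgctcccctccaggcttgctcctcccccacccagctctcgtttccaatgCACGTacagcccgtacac
BNIP3 promoter, chr10:131981924-131982173, minus strand: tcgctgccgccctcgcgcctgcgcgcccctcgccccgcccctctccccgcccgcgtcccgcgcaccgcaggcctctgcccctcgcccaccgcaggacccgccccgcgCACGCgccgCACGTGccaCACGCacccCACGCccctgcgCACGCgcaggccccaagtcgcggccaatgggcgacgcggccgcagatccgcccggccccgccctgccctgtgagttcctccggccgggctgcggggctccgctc
ANKRD37 promoter, chr4:185396591-185396840, plus strand: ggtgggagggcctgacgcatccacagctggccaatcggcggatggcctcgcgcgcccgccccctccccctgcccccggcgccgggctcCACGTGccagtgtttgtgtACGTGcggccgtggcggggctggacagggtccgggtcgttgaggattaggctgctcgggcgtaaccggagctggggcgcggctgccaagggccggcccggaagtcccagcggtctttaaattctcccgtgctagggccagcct
STC2 promoter, chr5:173328415-173328664, minus strand: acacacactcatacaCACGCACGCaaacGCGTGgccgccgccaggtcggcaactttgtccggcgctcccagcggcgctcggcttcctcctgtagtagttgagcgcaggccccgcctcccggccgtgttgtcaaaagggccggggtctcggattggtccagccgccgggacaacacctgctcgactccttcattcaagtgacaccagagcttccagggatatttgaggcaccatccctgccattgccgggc
EGLN3 promoter, chr14:33951075-33951324, minus strand: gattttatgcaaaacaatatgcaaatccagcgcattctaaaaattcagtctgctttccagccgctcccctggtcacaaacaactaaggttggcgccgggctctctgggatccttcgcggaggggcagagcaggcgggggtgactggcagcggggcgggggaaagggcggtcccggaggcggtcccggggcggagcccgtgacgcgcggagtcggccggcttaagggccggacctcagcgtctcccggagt

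The match of CA9 begins at position -18 from the start of transcription. The 5 matches of BNIP3 begin at positions -143, -134, -125, -116 and -104, and the second is the palindrome CACGTG. At least 5 matches occurred in 0.629% of all windows. The BNIP3 window holds 41 CG dinucleotides, and among 609 windows with as many or more the share was 4.11%. At least 1 match occurred in 61.9% of those 609 windows. In ANKRD37 the matches begin at -162, also CACGTG, and at -143. STC2 has a run of overlapping matches from -235 and a further one at -222. CA12, ADM, P4HA1 and KDM3A had 1 match each, for KDM3A in both of its windows. A match describes the letters only and is no measure of binding.

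Across tumours, the mean deviation of the 10 genes from their own 6-tumour means was -0.30, 0.18 and 0.04 log2 units in IR-A tumours and 0.06, -0.66 and 0.68 in control tumours. The IR-A tumours thus lay between control tumours 2 and 3. Glycolytic HIF targets, from the glucose transporter SLC2A1 to LDHA (18 of 20 measured), had -0.24, 0.11 and -0.03 in IR-A tumours and 0.14, -0.45 and 0.47 in control tumours. Control tumour 2 was the lowest control in 16 of these 18 genes and control tumour 3 the highest in 15. Subtracting the glycolytic mean from that of the 10 genes left -0.05, 0.07 and 0.07 in IR-A tumours and -0.09, -0.21 and 0.22 in control tumours, which overlap. A broader list of other HIF targets (34 of 35 measured) had -0.04, 0.24 and -0.0041 in IR-A tumours and 0.01, -0.39 and 0.19 in control tumours. The tumour with the lowest mean was control tumour 2 in all 3 lists, while the highest was IR-A tumour 2 in the broader one.

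**Figure D4:**
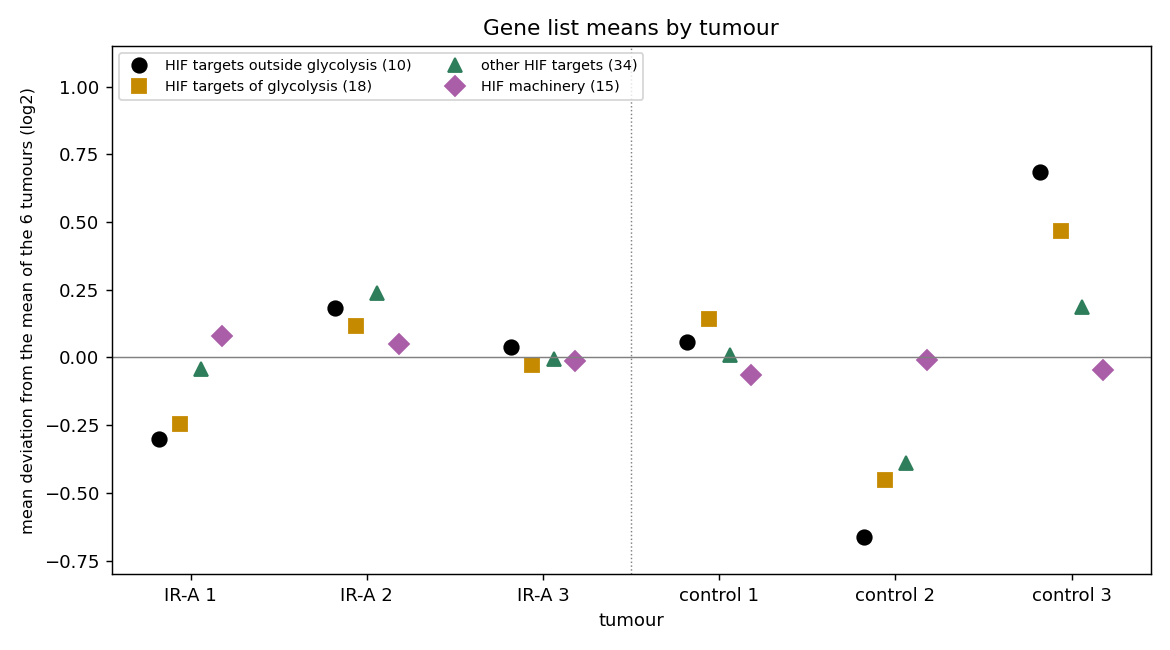
Mean deviation of each gene list from its 6-tumour mean on the log2 scale (y axis) in each tumour (x axis, IR-A left of the dotted line, control right). The 10 HIF targets outside glycolysis and the 18 glycolytic ones are lowest in control tumour 2 (-0.66 and -0.45) and highest in control tumour 3 (0.68 and 0.47), and the 15 genes of the HIF machinery stay within 0.08 of 0 in every tumour.

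The HIF machinery, meaning the subunits, their hydroxylases, the VHL complex and coactivators (15 of 16 measured), did not follow this order, with control tumour 2 the lowest control in 4 genes. None of the 15 passed limma's adjusted threshold. At an unadjusted p under 0.05, 2 were higher, where 7.1% of all probe sets were, and 1 was lower, where 7.03% were. The median difference was 0.08. ARNT, the partner subunit, read 9.33, 9.25 and 9.24 in IR-A tumours and 8.69, 9.15 and 8.93 in control tumours, a difference of 0.35 (SE 0.13, limma adjusted p = 0.318). EGLN1, the main oxygen-sensing hydroxylase, differed by 0.46 (SE 0.17, adjusted p = 0.318), and ELOB, a subunit of the VHL complex, by -0.26 (SE 0.09, adjusted p = 0.290). HIF1A and EPAS1, the alpha subunits, were looked at after their values were seen and differed by 0.21 (SE 0.10) and 0.34 (SE 0.15), with groups that did not overlap, as in 17.2% of all probe sets. For EPAS1 the groups almost met, with a lowest IR-A value of 8.968 and a highest control value of 8.967.

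Among the 34 other HIF targets outside glycolysis, 0 passed the adjusted threshold, and at an unadjusted p under 0.05 there were 3 higher (8.82%, against 7.1% of all probe sets) and 0 lower (against 7.03%). Their median difference was 0.06. P4HA2, which has the same role as P4HA1 in collagen, read 7.05, 6.94 and 7.03 in IR-A tumours and 5.77, 6.37 and 6.68 in control tumours. The groups of P4HA2 values did not overlap, and the difference was 0.73 (SE 0.22, limma adjusted p = 0.240). The lipoprotein receptor VLDLR differed by 0.56 (SE 0.18, adjusted p = 0.257) and MIR210HG, the host transcript of a hypoxia-induced microRNA, by 0.31 (SE 0.12, adjusted p = 0.338). Of the glycolytic HIF targets 0 passed, with a median of -0.08, and at an unadjusted p under 0.05 there were 0 of 18 higher, where 7.1% of all probe sets were, and 1 lower, where 7.03% were. The lower one was the glycolytic enzyme GAPDH, at -0.69 (SE 0.27, adjusted p = 0.335). Its probe set averaged 5.62 in IR-A tumours and 6.31 in control tumours, dimmer than that of the glycolytic enzyme ENO1 (10.63 and 10.95).

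Relatives of the listed genes (25 of 26 measured, some of them shared with the lists above) had a median difference of 0.05, with 0 past the adjusted threshold. At an unadjusted p under 0.05, 4 were higher, where 7.1% of all probe sets were, and 1 was lower, where 7.03% were. NDRG3, a relative of NDRG1, read 7.00, 6.96 and 7.06 in IR-A tumours and 7.45, 7.43 and 7.60 in control tumours, a difference of -0.49 (SE 0.09, limma adjusted p = 0.147). NDRG2 of the same family differed by 0.75 (SE 0.24, adjusted p = 0.254). NDRG3 separated the groups, whereas NDRG2 and NDRG1 did not. CA2, a cytosolic carbonic anhydrase, differed by 0.85 (SE 0.28, adjusted p = 0.269), with 9.24, 8.80 and 9.17 in IR-A tumours against 8.11, 8.82 and 7.73 in control tumours. None of the 4 genes listed for the adrenomedullin receptor passed. The receptor gene CALCRL differed by -0.02 and read 2.83 on average in IR-A tumours and 2.85 in control tumours. RAMP2 and RAMP3, the accessory proteins of adrenomedullin receptors, differed by -0.13 and 0.05. RAMP1, a protein of the same family, differed by -0.57 (SE 0.22, limma adjusted p = 0.332).

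Over the 6 tumours, the genes most like EGLN3 by distance between standardised profiles were MIR449B (distance 0.0568 SD units), PRAC2 (0.0824) and NRADDP (0.0972). For STC2 they were TMC8 (0.0451), BAALC-AS1 (0.0991) and LOC646214 (0.10), and for KDM3A they were JAKMIP1-DT (0.0966), NEXN-AS1 (0.128) and MAN2A1 (0.140). TMC8 shared the single high tumour of STC2, with 4.31, 4.53 and 4.53 in IR-A tumours and 4.63, 4.41 and 5.31 in control tumours. These are the closest of 23915 genes over only 6 arrays that all genes share, and several were dim, PRAC2 for example with 3.11 to 3.68.

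Markers of cells that the mouse host could bring were read on probe sets of human genes, so mouse RNA counts only where it binds to them. Endothelial markers (8 of 8 measured, 7 below the median probe set of 4.71) had list means of 3.99 to 4.01 in IR-A tumours and 3.92 to 4.05 in control tumours. Macrophage markers (8 of 8, 5 below that median) had 5.08 to 5.22 in IR-A tumours and 4.75 to 4.99 in control tumours, with a median difference of 0.0078, 4 genes above 0 and 4 below. The gap between these means came mainly from TYROBP, an adaptor of myeloid cells (difference 1.78, limma adjusted p = 0.131), and CD68, a lysosomal protein (0.62, adjusted p = 0.271). Fibroblast markers (8 of 8, 3 below) had 4.68 to 4.81 in IR-A tumours and 4.27 to 4.64 in control tumours, with 5 genes above 0 and 3 below. At an unadjusted p under 0.05 from limma, 3 fibroblast markers were higher, where 7.1% of all probe sets were, and 0 lower, where 7.03% were. The 3 were the matrix proteoglycan LUM at 1.26 (adjusted p = 0.106) and the collagen genes COL1A2 at 0.83 and COL1A1 at 0.40. The receptor PDGFRA was at -0.87 (adjusted p = 0.567), with control tumours from 5.43 to 7.86. TYROBP, CD68 and the named fibroblast markers were singled out after their values were seen. Erythroid markers (4 of 5, all 4 below) had 3.34 to 3.43 in IR-A tumours and 3.05 to 3.43 in control tumours. Control tumour 2 was the lowest of the 6 in each of these 4 dim genes, against 18.3% of all probe sets. Hepatocyte markers had 12.20 to 12.28 in IR-A tumours and 11.93 to 12.14 in control tumours. At an unadjusted p under 0.05 from limma, 4 of the 9 measured hepatocyte markers were higher and 0 lower. The macrophage list had 2 higher, the endothelial and erythroid lists 1 each, and these lists had 0 lower. In each list of markers 0 passed the adjusted threshold. The part of these cell types in the spread of the HIF targets was not tested.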

How the data were processed

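The deposited table gives 1 log2 signal for each probe set on each array. The submitters' processing notes list RMA, a method of background correction, normalization and probe summary, and Partek, with no version and no role. The log2 scale was read from the values (1.91 to 13.2, array medians 4.66 to 4.74). Array model, probe set definition and genome build: not given in the sources used here.

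Of 24726 probe sets, 23934 had 1 gene symbol in GEO's platform annotation, 0 had several and 792 were not listed, of which CA9 alone was named, by its gene ID. For 3 symbols with several probe sets the brightest was used. IR-A and control tumours (3 each) were compared with limma 3.58.1 in R 4.3.3 (lmFit, eBayes, no trend, no filter). P-values were adjusted by Benjamini-Hochberg over the whole table, at a threshold of 0.05. An exact permutation test of 3 against 3 cannot go below p = 0.1. The fit was tested on simulated data. No set test was made. The genes, lists and settings were chosen with earlier results of these data known. All 10 listed genes and INSR are named, and of each HIF, family or receptor list, not the cell type markers, up to 3 genes per direction at an unadjusted p under 0.05. For the 3 listed genes of smallest p, the 3 genes of nearest profile are named, each profile centred and divided by its SD. Signal shared between relatives was not checked. Plots used Python 3.11.15 and matplotlib 3.10.9. Alternatives were quantile normalization, median centring, leaving out the dimmest 25% or 50%, array weights, an intensity trend, robust moderation, a block on the replicate number, leaving out each tumour, and a threshold of 0.1.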

Additional observations from a re-analysis of the deposited data

How the results depend on the processing

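In all 14 alternative settings, and at an adjusted p of 0.1 over all 6 tumours, 0 of the 10 listed genes passed in limma. At an unadjusted p under 0.05 the count ran from 0 to 2 with 1 tumour left out. It was 2 without control tumour 2 (CA9 and ANKRD37, 21.1% of all probe sets) and 1 without IR-A tumour 1 (EGLN3, 8.72%). In 5 of the settings (the dimmest 25% or 50% left out, intensity trend, robust moderation, block) the differences cannot move. Of 90 differences recomputed in the other 9, 84 kept their direction and 6 turned, and none of these was a call. With array weights P4HA1 was -0.064. With 1 tumour left out, CA12 ran from -0.35 to 0.20, ADM from -0.057 to 0.70, NDRG1 from -0.10 to 0.32, BNIP3 from -0.44 to 0.029 and P4HA1 from -0.26 to 0.33, and LOC646214 from -0.30 to 0.013. The median of the 10 differences ran from -0.31 to 0.26 with 1 tumour left out, and was -0.10 with array weights, which gave control tumour 2 a weight of 0.476. Without CA9, an alternative chosen after seeing the data, it was 0.075 and 0 of 9 genes passed. The cause was not tested. Beside the listed genes, the settings were followed for INSR, the genes named from the HIF, family and receptor lists at an unadjusted p under 0.05, and those of nearest profile. Of these, INSR alone passed in any of the settings, at adjusted p values down to 0.0261 (without control tumour 2). Other genes named in the text, such as the cell type markers, HIF1A and EPAS1, were not followed.

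Replicate numbers of the titles are shared between the groups, but the labels name no pairing. Same-numbered tumours had correlations of their deviations from group means of -0.294, -0.358 and 0.0203. Deviations from a group's own mean are tied to each other, so these correlations cannot decide whether the numbers pair the tumours. With the replicate number as a block the differences are the same by construction (EGLN3 0.76, adjusted p = 0.699), the median of the listed genes was -0.04 and 0 of 10 passed. The table gives no signal over background, so how far EGLN3 and ANKRD37 lay above it is not known.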

Other observations

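Genes beside the HIF targets also separated control tumours 2 and 3, a pair chosen after the values were seen. The 12 genes with the largest excess in control tumour 3 held CA9 (3.11 log2 units), STC2 (2.14) and the glycolytic HIF target ENO2 (2.56). They also held MT1M, a metallothionein (2.60), NPPB, the precursor of a natriuretic peptide (2.30), and COXFA4L2, formerly NDUFA4L2, a mitochondrial protein known as a HIF target (2.08). The small nucleolar RNAs SNORA1 (3.28), SNORD37 (2.54) and SNORA80E (2.15) and the vault RNA VTRNA1-2 (3.09) were among them too. MIR3928 (2.05) and NT5C3A (1.98) completed the 12.

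At the other end of the same ranking, SLC2A2, the glucose transporter of the liver, had -3.97, FETUB, a plasma protein secreted by the liver, -3.39, SLCO1B1, the uptake carrier of hepatocytes for organic anions, -2.82, and HRG, a plasma glycoprotein, -2.56. The Wnt inhibitor DKK1 had -2.61 and the proteoglycan PRG4 -2.73. MIR3064 (-2.63), ERP27 (-2.58), SLC10A5 (-2.55), CDS1 (-2.52), PALMD (-2.52) and MIR5047 (-2.51) were the others of the 12. These are differences between 1 tumour and 1 other, with no replicate check.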
